A study of Homo sapiens with 2 samples.

Results

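GPR18, GPR183, P2RY8, P2RY10, S1PR1, S1PR2, GPR65, GPR132, PTGER4 and ADORA2B encode G protein-coupled receptors that serve lymphoid cells. Their signals were followed in the Hodgkin lymphoma (HL) cell line L-428, in which PRAME, the preferentially expressed antigen in melanoma, was either knocked down or left at its level. The 10 genes are grouped by function around GPR18, which was selected on its high ratio between the same arrays, and every probe set annotated to 1 of these symbols was used. This gave 15 probe sets, of 41091 probe sets with 1 gene and 19775 genes in all. Because its own values chose GPR18, its ratio is a description and was not tested.

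L-428 is an established cell line that was derived from Hodgkin lymphoma. The control cells carried the vector pcDNA6.2-GW/EmGFP-miR-neg, and the knock-down cells carried pcDNA6.2-GW/EmGFP-miR-PRAME, which encodes an artificial microRNA against PRAME. Both vectors also encode a green fluorescent protein, and the study selected stable transfectants with blasticidin. Whether each culture was a clone or a pool is not given in the sources used here. No drug or retinoic acid is named for either array. Total RNA of each condition was hybridized to 1 array. There is thus no spread between replicates and no test was made, and single arrays limit the precision of every ratio below.

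These receptors sit in the cell membrane and pass signals from small molecules to G proteins inside the cell. In lymphoid tissue they guide where B cells move and rest, through gradients of oxysterols and lysophospholipids, and they sense prostaglandins, adenosine and acid. Receptors coupled to inhibitory G proteins favor migration and lower cyclic AMP (cAMP), those coupled to GNA13 hold cells in place, and those coupled to GNAS raise cAMP.

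The deposited values are MAS5 signal intensities on a linear scale. The trimmed mean signal was 500.1 on both arrays, and the median was 91.9 on the control array and 109.9 on the knock-down array. A probe set passed the filter when the geometric mean of its signals was at least 97.7, the median of all probe sets. Each log2 ratio sets the knock-down array over the control array, less the median ratio of all probe sets above the filter. PRAME (204086_at) read 2115 on the control array and 1251 on the knock-down array, a log2 ratio of -0.80. Among the markers of Hodgkin and Reed-Sternberg cells 10 of 11 passed the filter, CCL22 being the exception, among those of B cells 5 of 7 with probe sets, and among those of T cells 0 of 7. Of 6 myeloid markers 1 (ITGAM) and 5 of 10 stromal and epithelial markers passed as well. The summed signals of the B cell markers were 1366 on the control array and 1709 on the knock-down array, those of the T cell markers 287.8 and 426.7, those of the myeloid markers 389.0 and 497.8, those of the stromal and epithelial markers 2876 and 2998, and those of the Hodgkin cell markers 59059 and 55067. The Hodgkin cell markers include PRAME itself. By brightest probe set, 3 of the 10 above the filter, PRAME among them, were at least 1.5-fold lower and 0 higher. Over all genes above the filter these shares were 5.42% and 7.54%. The part of all these markers in the receptor values was not tested. In RNA of a whole culture, more cells with a transcript and more transcript per cell cannot be told apart.

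The regions before the start sites of 4 receptors are printed because GPR18 and GPR183 are neighbors in the genome and differed in their ratios, and because P2RY8 and S1PR2 were the only ones of the 10 with AGGTCA or TGACGTCA, described below. Each is the RefSeq stretch of 250 bases before the start site in the build GRCh38.p14, written 5′ to 3′ on the strand of the gene. Capitals mark matches to the motifs searched. GPR18 lies at chr13:99258380-99258629 (minus strand), GPR183 at chr13:99307400-99307649 (minus strand), the second, downstream start site of P2RY8 at chrX:1494381-1494630 (minus strand) and S1PR2 at chr19:10231332-10231581 (minus strand).
GPR18: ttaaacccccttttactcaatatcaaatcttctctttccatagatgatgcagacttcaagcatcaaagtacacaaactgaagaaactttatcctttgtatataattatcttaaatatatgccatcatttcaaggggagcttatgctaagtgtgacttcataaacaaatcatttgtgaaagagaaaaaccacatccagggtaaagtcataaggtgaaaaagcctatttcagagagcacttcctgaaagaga
GPR183: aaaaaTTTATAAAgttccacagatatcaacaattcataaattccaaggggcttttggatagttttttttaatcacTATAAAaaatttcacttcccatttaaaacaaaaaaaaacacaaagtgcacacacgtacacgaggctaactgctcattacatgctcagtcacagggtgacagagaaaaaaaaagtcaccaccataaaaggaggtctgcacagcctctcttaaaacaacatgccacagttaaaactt
P2RY8, downstream start site: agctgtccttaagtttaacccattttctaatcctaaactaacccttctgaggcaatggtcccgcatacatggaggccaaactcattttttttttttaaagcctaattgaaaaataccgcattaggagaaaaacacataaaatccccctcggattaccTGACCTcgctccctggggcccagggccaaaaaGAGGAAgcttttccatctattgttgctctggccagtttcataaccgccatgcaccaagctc
S1PR2: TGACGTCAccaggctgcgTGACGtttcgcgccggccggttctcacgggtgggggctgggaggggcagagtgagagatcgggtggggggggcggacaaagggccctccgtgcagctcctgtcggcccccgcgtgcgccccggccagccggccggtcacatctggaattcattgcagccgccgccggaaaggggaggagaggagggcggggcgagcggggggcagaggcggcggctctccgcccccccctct
The 7 motifs were searched on both strands in the same 250 bases of 35093 start sites, of which 11 belong to the 10 receptors. They were the nuclear receptor half-site AGGTCA, the cAMP response element TGACGTCA and its half-site TGACG, the AP-1 site TGANTCA, the PU.1 core GAGGAA, the octamer ATTTGCAT and the TATA box TATAAA. The half-site lies within the full cAMP response element, so that these overlap. AGGTCA, to which retinoic acid receptors can bind, was found in 12.1% of all start sites and in 1 of the 11, the downstream one of P2RY8. TGACGTCA was found in 1.65% of all and in that of S1PR2. GPR183 held TATAAA, as did GPR65, with a share of 10.7% among all start sites, and a TATAAA on each strand of GPR183 overlap in the run TTTATAAA. GAGGAA (23.6% of all) was found in GPR65, P2RY10 and both start sites of P2RY8, and TGACG (21.2%) in S1PR2, GPR132, ADORA2B and P2RY10. None of the 7 motifs was found in the 250 bases of GPR18. TGANTCA (6.57%) and ATTTGCAT (1.63%) were found in none of the 11. The receptor regions also differed in base composition. GPR65 with 29.6% G and C, GPR18 with 34%, GPR183 with 34.4% and P2RY10 with 39.2% lay below the median of 58% over all start sites, and 1.32% of these were lower than GPR65 and 4.36% lower than GPR18. GPR132 with 57.2% and the start sites of P2RY8 with 54% and, downstream, 44.4% were also below this median. ADORA2B with 75.2%, S1PR2 with 74%, PTGER4 with 72.8% and S1PR1 with 64.4% lay above it. The GPR18 region holds 0 CG pairs and that of ADORA2B 33.

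Of the 10 receptors, 7 passed the filter, and 1 of these 7 was at least 1.5-fold higher in the PRAME knock-down cells. This was GPR18. Over all 11794 genes above the filter, 7.54% were at least 1.5-fold higher and 5.42% at least 1.5-fold lower, and 1.73% and 0.729% passed 2-fold. None of the 7 receptors was at least 1.5-fold lower when each gene is read from its probe set with the highest signal. The other 6 receptors had log2 ratios between -0.31 and 0.27. The median of the 7 was 0.034, beside -0.0069 for all genes. Counted by probe set, 1 of 8 above the filter was at least 1.5-fold higher and 1 lower (PTGER4 204896_s_at), beside 7.38% and 6.54% of all probe sets with 1 gene above the filter. P2RY8, P2RY10 and GPR65 did not pass the filter and are described by their signals.

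**Figure D1:**
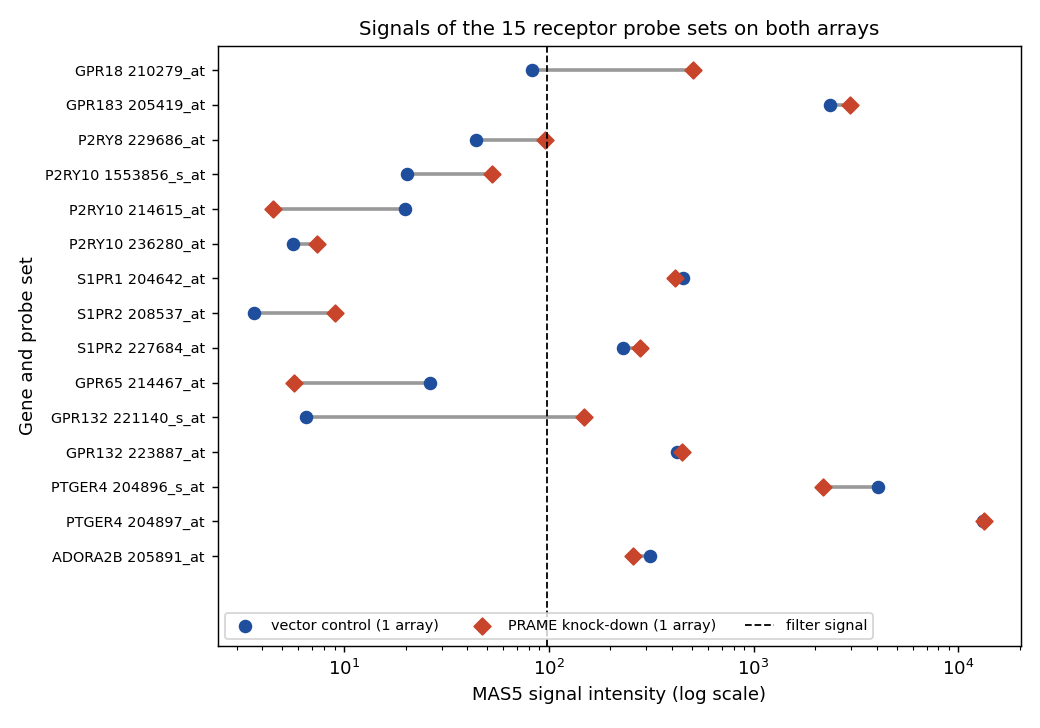
MAS5 signal (log axis) of the 15 probe sets of the 10 receptors in control cells (blue circles) and PRAME knock-down cells (red diamonds), 1 array each, with a dashed line at the filter signal of 97.7. GPR18 runs from 83.1 to 506 across this line, while the pair of points of GPR183, S1PR1, ADORA2B and PTGER4 204897_at lie close together.

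GPR18 is a receptor of lymphocytes for which lipid ligands such as N-arachidonoyl glycine have been proposed. Its only probe set, 210279_at, read 83.1 on the control array and 506 on the knock-down array. The signal was thus 5.90-fold higher after centering, a log2 ratio of 2.56 and the third highest of the 11794 genes above the filter. It passed the filter through its knock-down signal, and without a filter it was number 319 of 19775 genes. In the control cells it lay under the filter signal, and 48.0% of all probe sets had a lower signal there, against 75.4% in the knock-down cells. Of 41091 probe sets with 1 gene, 19157 were under the filter signal on the control array, and GPR18 alone of these reached 500 on the knock-down array. This bound was chosen after the values were seen. With the arrays exchanged, 0 probe sets met the same bounds.

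A control signal of 83.1 lay under the 90th percentile of 95.1 for genes which HL cells are not known to express. Of 59 probe sets for 31 genes of liver, pancreas, muscle and other organs, 48 read lower than GPR18 on the control array and 57 on the knock-down array. Their median was 25.9 and 26.0. Of these 59 probe sets, 2 had a log2 ratio at or above that of GPR18. At least 1.5-fold higher were 42.4% of them and lower 13.6%, beside 37.6% and 18.1% of all probe sets with 1 gene below the filter. Most but not all of the 59 were faint, since 6 of the 31 genes passed the filter. Faint probe sets in general thus leaned towards the knock-down array. The part of this lean in the ratios of faint receptor probe sets was not tested. The size of the GPR18 ratio thus rests on a low control signal. With an offset of 64 added to both signals the log2 ratio was 1.91, and under the alternatives in which GPR18 was measured it ranged from there to 2.61. Among the 1000 probe sets nearest to GPR18 in mean signal, the middle 95% of log2 ratios ran from -0.88 to 1.05. This range holds true differences between the cells as well as noise, and it does not replace replicates. By the distance of both log2 signals, the genes above the filter nearest to GPR18 were OR7E47P with signals of 106.8 and 408, ADH4 with 127.5 and 485, REM2 with 113.1 and 327, ATP2B1-AS1 with 115.3 and 327 and SPP1 with 123.1 and 345. Their distance to GPR18 was 0.48 to 0.79 on the log2 scale over 2 arrays, and their log2 ratios lay between 1.44 and 1.89.

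**Figure D2:**
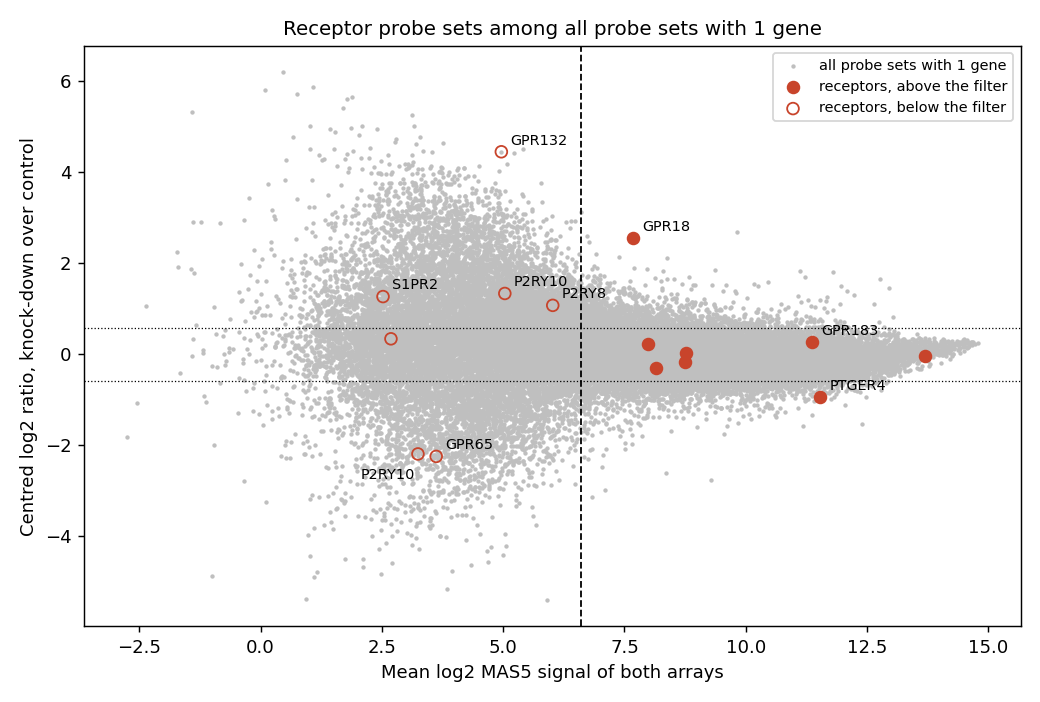
Centered log2 ratio of PRAME knock-down over control cells against the mean log2 signal of both arrays for 41091 probe sets with 1 gene (grey), with receptor probe sets above (filled) and below (open) the filter; the dashed line is the filter and dotted lines stand at 1.5-fold. GPR18, which was selected on its ratio, stands at 2.56, and the open points lie where ratios from below -2 to above 3 are common.

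GPR183, also known as EBI2, is the receptor for a dihydroxylated cholesterol and guides activated B cells within the follicle. Its probe set 205419_at read 2373 on the control array and 2954 on the knock-down array, a log2 ratio of 0.27. GPR183 was thus bright in both conditions and differed by less than 1.5-fold, where GPR18 differed by far more. GPR18 and GPR183 follow each other on chromosome 13 among the measured genes, both on the minus strand, and both lie within the bounds of UBAC2, which is read from the plus strand. UBAC2 had a signal of 477 and 417 for 224298_s_at, a log2 ratio of -0.24. Of the 10 measured genes around GPR18, 5 on each side, 0 differed by 1.5-fold in either direction. This margin was passed upwards by 7.54% and downwards by 5.42% of all genes above the filter, so 0 of 10 lies near these shares. The log2 ratios of the 10 neighbors ranged from -0.47 for PCCA to 0.27 for GPR183 with a median of -0.075. GPR18 was selected on its high ratio, so its contrast with these neighbors is a description.

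**Figure D3:**
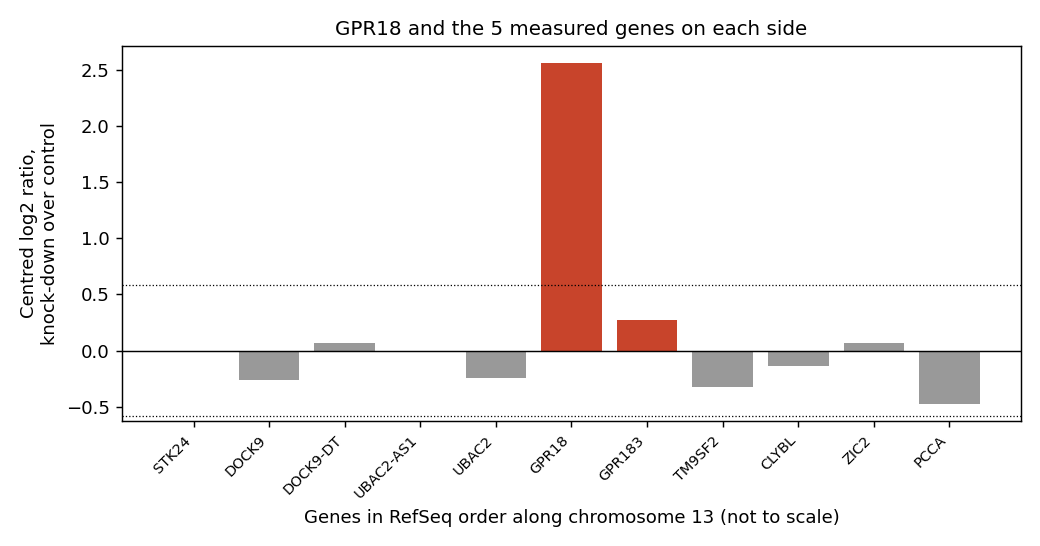
Centered log2 ratio (bars, 1 array per condition) of GPR18 and of the 5 genes above the filter on each side in RefSeq order on chromosome 13, with dotted lines at 1.5-fold. GPR18, which was selected on its ratio, stands at 2.56, and its 10 neighbors lie between -0.47 and 0.27.

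The receptors for sphingosine 1-phosphate were measured by 1 probe set above the filter each. S1PR1, which draws lymphocytes out of tissue into blood and lymph, read 452 on the control array and 415 on the knock-down array (log2 ratio -0.17). S1PR2, which couples to GNA13 and holds B cells in the germinal center, had a signal of 229 and 278 for 227684_at (log2 ratio 0.23). Both differed by less than 1.5-fold and in opposite directions. The second probe set of S1PR2, 208537_at, had signals of 3.65 and 9.07. These are among the lowest on the arrays, and with the offset its log2 ratio went from 1.27 to 0.072. P2RY8 couples to GNA13 as well and confines B cells to the germinal center. Its probe set 229686_at read 44.1 on the control array and 95.9 on the knock-down array, so both lay under the filter signal. The log2 ratio of P2RY8 was 1.08, and 0.53 with the offset. Of the 59 probe sets for genes of other organs, 43 read lower than P2RY8 on the control array and 49 on the knock-down array.

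P2RY10, a receptor for lysophosphatidylserine, gave 3 low signals. Without and with the knock-down, they were 20.3 and 52.9 for 1553856_s_at, 19.9 and 4.50 for 214615_at and 5.63 and 7.36 for 236280_at. The log2 ratios of P2RY10 were 1.34, -2.19 and 0.34, so its probe sets differed in direction and gave no level for this gene. The acid-sensing receptor GPR65 raises cAMP through GNAS. Its signal went from 26.3 on the control array to 5.74 on the knock-down array, a log2 ratio of -2.24 that shrank to -0.41 with the offset. Of the 7 receptor probe sets below the filter, 4 were at least 1.5-fold higher and 2 at least 1.5-fold lower. Below the filter this held for 37.6% and 18.1% of all 18712 probe sets with 1 gene, so that ratios of this size were common there.

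GPR132, a relative of GPR65 that responds to oxidized fatty acids, was read differently by its 2 probe sets. The signals of 223887_at were 424 on the control array and 447 on the knock-down array, a log2 ratio of 0.034. The signal of 221140_s_at was 6.56 and 148, which is a log2 ratio of 4.45, the highest of the 15 probe sets. The second probe set of GPR132 was below the filter on the mean of both arrays although its knock-down signal was above it. With the offset its log2 ratio was 1.55, second to that of GPR18 among the receptors. Both ratios of GPR132 were above 0, but their size rests on which probe set is used, and 223887_at, the brighter one on both arrays, showed almost equal signals.

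PTGER4, which encodes the prostaglandin E2 receptor EP4 and raises cAMP, was read by 2 bright probe sets. The signals of 204897_at were 13256 on the control array and 13346 on the knock-down array, a log2 ratio of -0.035 that became 0.0097 without centering. In contrast, the signal of 204896_s_at was 4046 and 2188, a log2 ratio of -0.93 or 1.91-fold lower. The 2 ratios of PTGER4 thus differed by 0.90 on the log2 scale. Other genes with 2 probe sets above the filter had a median gap of 0.28, and 93.1% of them had a smaller gap than PTGER4. With the median over both probe sets the log2 ratio of PTGER4 was -0.48. ADORA2B, the adenosine receptor of low affinity that also raises cAMP, had a signal of 311 and 259 (log2 ratio -0.31). Its ratio was the lowest of the 7 receptors above the filter, at less than 1.5-fold. Set beside the 1000 probe sets nearest in mean signal, 3 of the 15 receptor probe sets lay outside the middle 95% of log2 ratios. These were GPR18, PTGER4 204896_s_at (range -0.64 to 0.54) and GPR132 221140_s_at (range -2.20 to 2.78). GPR18 was selected on this ratio, so its place outside the range is no result. The range leaves out a fixed share of probe sets by construction, and the count is a description. GPR183 at 0.27 lay inside its range of -0.70 to 0.58, and ADORA2B inside one of -0.83 to 0.84. P2RY8 (-1.25 to 1.73) and GPR65 (-2.68 to 3.46) lay inside their wider ranges at low signal.

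Genes that make, carry or break down the ligands were mostly within 1.5-fold. Of 20 measured genes, each read from its brightest probe set, 1 was higher and 3 were lower by this margin. These are 5% and 15%, beside 7.54% and 5.42% of all genes, and the median log2 ratio was -0.077. Dimmer probe sets above the filter passed 1.5-fold for PTGES (207388_s_at, 1.19), ENTPD1 (228585_at, 0.89), SLC29A2 (1553540_a_at, 0.81) and ADK (204120_s_at, 0.66). They were named after their values were seen. NAAA, an amidase that cleaves lipid amides, had a signal of 742 and 1355 for 227135_at (log2 ratio 0.82), and its 4 probe sets above the filter ranged from -0.084 to 0.82. PLA1A, a phospholipase that forms lysophosphatidylserine, had a signal of 336 and 201 (-0.79). SGPL1, which cleaves sphingosine 1-phosphate, was lower in both probe sets above the filter, with log2 ratios of -0.71 and -0.60 and signals of 3429 and 2332 for 212322_at. SPHK1, which makes sphingosine 1-phosphate, was lower as well, with signals of 303 and 207 (log2 ratio -0.60). SPHK1 was named after its values were seen.

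Of 13 measured receptors related to the 10, 1 was higher and 1 lower by at least 1.5-fold, beside 7.54% and 5.42% of all genes. A further 28 with probe sets did not pass the filter. TBXA2R, the thromboxane receptor, had signals of 108.6 and 182.5 (log2 ratio 0.70), and LPAR1, a receptor for lysophosphatidic acid, had 132.6 and 87.8 (-0.64). The closest relatives of S1PR1 and S1PR2 above the filter differed by less than 1.5-fold, S1PR3 with signals of 294 and 278 (-0.13) and S1PR4 with a log2 ratio of 0.051. The adenosine receptor ADORA3 was bright with 2569 and 2470 for 223660_at (-0.10, and 0.096 in its second probe set). These 3 were named for their kinship. The G protein alpha subunits, which the receptors act on, had 0 of 10 measured genes higher and 0 lower by 1.5-fold. These counts stand beside 7.54% and 5.42% of all genes, with each gene read from its brightest probe set. Chosen for their role, the inhibitory subunit GNAI2 had signals of 773 and 774 (log2 ratio -0.043), GNA13 of 4339 and 3643 (-0.30), and GNAS of 16350 and 17695 (0.069). Further probe sets of the last pair above the filter differed, with log2 ratios up to 0.34 for GNA13 and down to -0.80 for GNAS. Among 11 beta and gamma subunits, 1 was at least 1.5-fold higher, beside 7.54% of all genes, and 0 were lower. The higher gene was GNG7, with signals of 136.4 and 219.7 (log2 ratio 0.64).

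RGS proteins switch G proteins off, and receptor kinases and arrestins end receptor signals. Of 11 measured RGS genes 2 were at least 1.5-fold higher, beside 7.54% of all genes, namely RGS8 with signals of 69.0 and 172 (log2 ratio 1.27) and RGS12 with 79.3 and 159 (0.96). Both were under the filter signal in the control cells. RGS1 and RGS13, RGS genes of B cells that were picked here for that role, had log2 ratios of -0.20 and 0.18 at high signals. Of 5 measured receptor kinases and arrestins, 2 were higher and 0 lower, beside 7.54% and 5.42% of all genes. GRK5 had signals of 123.7 and 255 for 204396_s_at, where its log2 ratio was 0.999 and the lowest of 3 probe sets above the filter had 0.19, and GRK3 had 486 and 817 for 228771_at, with a log2 ratio of 0.020 in the lowest of 3 probe sets and 0.70 in this one. The ratios of GRK5 and GRK3 were above 0 in each of these probe sets but differed in size. In both lists each gene was counted from its brightest probe set. Dimmer probe sets above the filter passed 1.5-fold for RGS16 (209325_s_at, 0.73), GRK2 (38447_at, 0.98) and GRK6 (211543_s_at, -0.61). These 3 genes were named after their values were seen.

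In the cAMP branch 4 of 22 measured genes were at least 1.5-fold higher and 1 was lower, with a median log2 ratio of -0.00025. These are 18.2% and 4.55%, beside 7.54% and 5.42% of all genes. The phosphodiesterase PDE8B had signals of 74.5 and 175.3 (log2 ratio 1.19), and the adenylate cyclase ADCY2 had 77.7 and 150.9 (0.91). Both were under the filter signal on the control array. ADCY6 (0.60) and the regulatory subunit PRKAR1B of protein kinase A (0.63) were the others, named after their values were seen. The anchoring protein AKAP13 was lower at 221718_s_at with signals of 2788 and 1818 (log2 ratio -0.66), while its 7 probe sets above the filter ranged from -0.66 to 0.35. Dimmer probe sets above the filter, which were not counted, also passed 1.5-fold. They were ADCY3 209320_at (1.24), PDE4D 210836_x_at (-0.78) and 211840_s_at (-0.64) and PDE7A 224046_s_at (-0.65), named after their values were seen. Of 9 factors for receptor trafficking 1 was at least 1.5-fold higher, beside 7.54% of all genes, and 0 were lower. The higher gene was KLF2, which drives transcription of S1PR1 in lymphocytes, with signals of 200.6 and 336 (log2 ratio 0.70). S1PR1 itself had a log2 ratio of -0.17. Among the trafficking factors, dimmer probe sets above the filter passed 1.5-fold for KLF3 (219657_s_at, 0.68) and RAB11A (234998_at, -0.69).

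Over all 9 lists, 110 genes were measured, each read from its brightest probe set, and 93 of these were within 1.5-fold. In total 12 were higher, or 10.9%, beside 7.54% of all genes, and 5 were lower, or 4.55%, beside 5.42%. With the offset of 64, 6 of the 12 higher genes were under 1.5-fold (TBXA2R, GNG7, ADCY2, ADCY6, PRKAR1B and KLF2), as were 3 of the 5 lower ones (LPAR1, SGPL1 and SPHK1). The highest log2 ratio of the 110 was 1.27 for RGS8. This is not weighed against GPR18, which was selected on its high ratio.

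**Figure D4:**
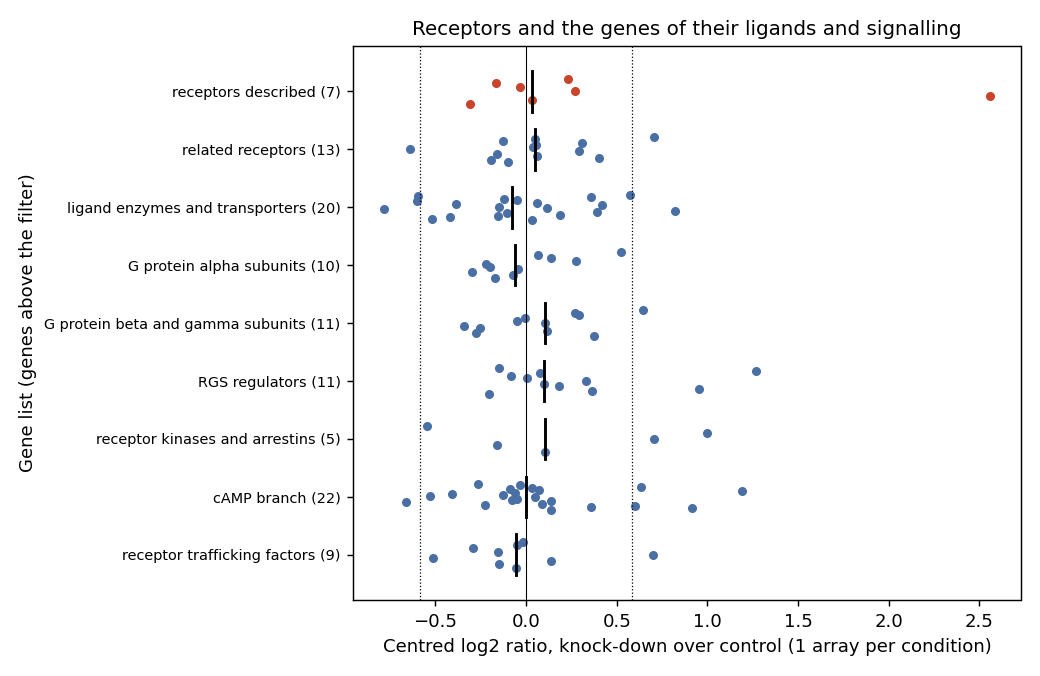
Centered log2 ratio of every gene above the filter (points, 1 array per condition) for the receptors (red) and 8 of the 9 lists of related receptors, ligand and signaling genes (blue), with the number of genes in brackets, black bars at the medians and dotted lines at 1.5-fold. The medians lie between -0.077 and 0.11, and GPR18, which was selected on its ratio, stands at 2.56.

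The way of processing moved the faint probe sets more than the bright ones. GPR18 had log2 ratios of 2.56 as reported, 2.61 without centering, 2.46 after quantile normalization and 2.47 after subtraction of a loess curve. GPR183 stayed between 0.27 and 0.35 and ADORA2B between -0.36 and -0.25 over these and the offset. P2RY8 was 0.81 after quantile normalization and 0.79 after loess.

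**Figure D5:**
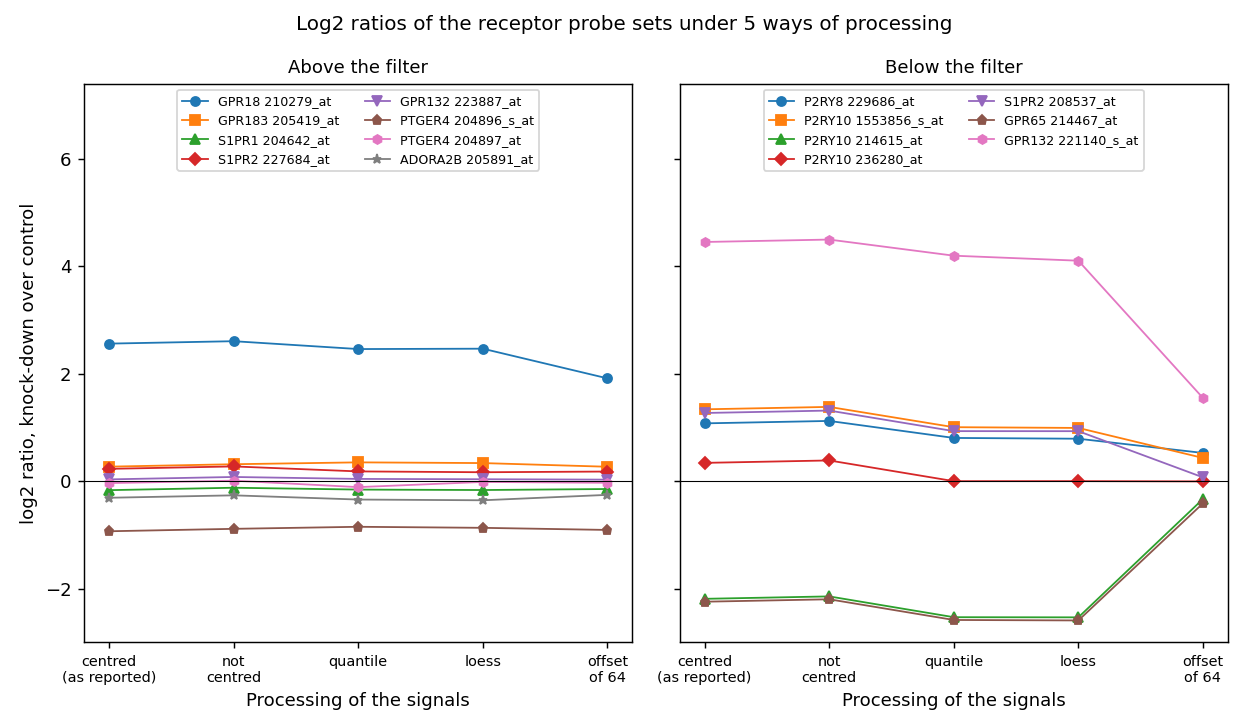
Log2 ratio of each receptor probe set as reported and under 4 other ways of processing, above the filter (left) and below it (right), 1 array per condition. Lines above the filter are almost flat except for GPR18 with the offset (1.91), while below the filter GPR132 221140_s_at goes from 4.45 to 1.55 and GPR65 from -2.24 to -0.41.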

How the data were processed

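RNA of L-428 control cells and PRAME knock-down cells was hybridized to 1 Affymetrix HG_U133PLUS2.0 array each. The authors made MAS5 signal intensities with Affymetrix Expression Console 1.1 and deposited them on a linear scale, scaled to one level on each array. MAS5 subtracts background, which leaves faint probe sets with uncertain ratios. The general description of the series names other cells (L-540) and another array type, whereas the labels and the study's methods name L-428.

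The 62 control probe sets were left out. Log2 ratios were taken without an offset, and 0.045, the median of the 27307 probe sets above the filter, was subtracted. A gene is represented by its probe set above the filter with the highest mean signal. By the platform annotation 41091 probe sets had 1 gene, 1801 had more than 1 and 11721 had no gene. Symbols were updated by gene ID from RefSeq (GRCh38.p14, 41037 matched), which also gave the gene order. Promoter windows were found for all 10 receptors.

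The thresholds of 1.5-fold and the lists are descriptive, and no test was made. The 10 receptors, the 9 lists and the alternatives were chosen with earlier results of these data known. Named genes are the receptors, up to 3 genes per list with the largest ratios past 1.5-fold, the 5 genes nearest to GPR18 and 5 neighbors on each side, with exceptions stated. The separate values of 1 of the 9 lists are not reported here. The code for the ratios was checked on simulated data. Alternatives left out the centering, replaced it by quantile normalization or by loess (span 0.4), added an offset of 64, dropped the filter or set it at the 75th percentile, gave each gene the median of its probe sets, or used no probe set whose name ends in _s_at, _x_at or _a_at. Calculations used numpy 2.4.6, statsmodels 0.14.6 and pandas 2.3.3 in Python 3.11.15, and plots matplotlib 3.10.9.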

Additional observations from a re-analysis of the deposited data

How the results depend on the processing

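Values were compared with the pooled SD of 0.33 between log2 ratios of different probe sets of a gene (5840 genes), since there was no spread between cultures. The log2 ratio of GPR18 moved by more than this with the offset of 64 (1.91) and could not be given with the filter at the 75th percentile, which left 2 of the 10 receptors. Without a filter 3 of 10 receptors were at least 1.5-fold higher and 1 was lower, beside 17.6% and 11.8% of all genes. The faint P2RY8, P2RY10 and GPR65 were then counted. With the filter at the 75th percentile 0 of 2 were higher, beside 3.44% of all genes. The median log2 ratio of the receptors (0.034) and the log2 ratio of PRAME moved by less than the SD under every alternative that gave a value. Of 44 values of the other receptor genes 43 did so too, PTGER4 with the median over probe sets (-0.48) being the exception, and of 85 values of single probe sets 66 did.

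The counts of genes in the 9 lists also moved with the processing. As reported, 12 of 110 were higher and 5 lower. They were 13 and 3 without centering, 8 and 3 after quantile normalization, 8 and 4 after loess, 6 and 2 with the offset, 32 and 17 of 175 without a filter, and 2 and 1 of 64 with the filter at the 75th percentile. Over all genes 889 were higher and 639 lower as reported, 1042 and 535 without centering, 768 and 599 after quantile normalization, 729 and 637 after loess, 476 and 463 with the offset, 3480 and 2331 without a filter and 254 and 273 with the filter at the 75th percentile. The cause was not tested for the settings that change the scale. The filters change the number of genes by construction. No paired analysis was possible because each condition has 1 array, and no replicate could be left out.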
